A study of Mus musculus with 18 samples.

Results

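The 10 genes described here encode the subunits of the transcription factor NF-kB and a group of its feedback inhibitors, measured by bulk RNA-Seq in splenic and Peyer's patch (PP) B cells of OVA-sensitized mice. They were taken by gene symbol from the deposited table of 55491 genes, and all 10 were found. 5 are subunits (Nfkb1, Nfkb2, Rel, Rela and Relb) and 5 are inhibitors or regulators (Nfkbia, Nfkbie, Nfkbid, Tnfaip3 and Birc3). All 10 passed the filter on low counts in every comparison.

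NF-kB dimers are held in the cytoplasm of a resting B cell by IkB proteins and enter the nucleus when signals from the B cell receptor, CD40, BAFF receptor or Toll-like receptors lead to IkB degradation. The canonical route acts mainly through RelA and c-Rel paired with p50, and the noncanonical route releases p52 with RelB. Several genes of this circuit are themselves NF-kB targets, so that IkB and A20 transcripts are made when the factor is active and then shut it off. In B cells the pathway is known for survival, germinal center reactions and antigen presentation.

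All mice were female BALB/cJ animals aged 10 to 12 weeks that had been sensitized i.p. with 20 μg OVA on 1 mg alum on days 0 and 14, so the controls were sensitized and not naive. On days 28 and 42 they were given 100 μL PBS, 100 μg soluble OVA or 2.5 mg OVA NPs (OVA-loaded poly(lactide-co-glycolide) nanoparticles) i.v., and B cells were collected on day 44 by magnetic depletion of other cells. There were 3 libraries for each of the 6 combinations of tissue and treatment, 18 in all. Spleens were dissociated mechanically and PPs were digested with collagenase and DNase, so tissue and dissociation cannot be told apart.

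Library totals ran from 14177253 to 30052297 counts, and 3 counts corresponded to 0.0998 to 0.212 CPM (counts scaled to library size by TMM). Pan-B cell markers (Cd79a, Cd79b, Ms4a1 and Pax5) summed to 5135 to 6102 CPM in the spleen and 3769 to 4618 CPM in PP. The 3 epithelial markers (Epcam, Krt8 and Vil1) summed to 6.46 to 9.34 CPM in the spleen, where Krt8 and Vil1 were near 0, and to 129.9 to 586.7 CPM in PP. The 6 germinal center markers summed to 97.2 to 150.0 CPM in the spleen of PBS controls, 298.3 to 322.6 CPM with OVA NPs and 302.5 to 421.1 CPM with soluble OVA. In PP the corresponding ranges were 867.5 to 1050.1, 680.9 to 1048 and 1527 to 1595 CPM. In bulk samples, fewer cells of a type and less RNA per cell cannot be told apart.

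Promoters of these genes are shown because several members moved together and because NF-kB feedback genes are known for NF-kB sites near their start. RefSeq promoter entries (GRCm38.p6) were found for 8 of the 10 members, 13 promoters in all. They were searched on both strands for the 10-letter NF-kB consensus in the 250 bases before the start site. Of the 8 genes, 6 held a match in at least 1 promoter (Nfkb2, Rel, Nfkbia, Nfkbie, Nfkbid and Tnfaip3), beside 4.46% of 27025 genes and 3.90% of 32851 promoters of the same length. Nfkb1 (chr3:135584655-135691547, minus strand, GRCm38) and Relb (chr7:19606217-19629438, minus strand) had no entry. In the sequences, read 5′ to 3′ along the gene's strand, capitals mark the bases that match the consensus on either strand. 1 promoter with a match is shown for each of these 6 genes, and those of Rela and Birc3, which had none in this window, come last. Of the promoters not shown, both of Nfkb2 also held a match, while both of Nfkbid and that of Tnfaip3 held none.
Nfkb2 (chr19:46304487-46304736, plus strand): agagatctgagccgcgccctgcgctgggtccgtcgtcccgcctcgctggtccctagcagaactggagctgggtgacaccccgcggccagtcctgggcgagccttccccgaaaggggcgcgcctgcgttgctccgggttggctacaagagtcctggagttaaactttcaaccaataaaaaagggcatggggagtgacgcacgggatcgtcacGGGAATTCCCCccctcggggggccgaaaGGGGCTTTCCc
Rel (chr11:23770970-23771219, minus strand): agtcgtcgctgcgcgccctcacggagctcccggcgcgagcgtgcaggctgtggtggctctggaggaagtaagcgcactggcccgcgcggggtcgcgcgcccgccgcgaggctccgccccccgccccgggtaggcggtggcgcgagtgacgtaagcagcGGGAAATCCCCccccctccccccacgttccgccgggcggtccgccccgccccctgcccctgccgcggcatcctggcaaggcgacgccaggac
Nfkbia (chr12:55492648-55492897, minus strand): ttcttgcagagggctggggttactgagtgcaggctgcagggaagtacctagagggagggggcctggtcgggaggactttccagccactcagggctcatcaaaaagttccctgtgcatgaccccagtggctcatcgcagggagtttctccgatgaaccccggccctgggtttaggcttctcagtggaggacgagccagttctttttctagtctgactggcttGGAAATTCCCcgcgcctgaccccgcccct
Nfkbie (chr17:45555450-45555699, plus strand): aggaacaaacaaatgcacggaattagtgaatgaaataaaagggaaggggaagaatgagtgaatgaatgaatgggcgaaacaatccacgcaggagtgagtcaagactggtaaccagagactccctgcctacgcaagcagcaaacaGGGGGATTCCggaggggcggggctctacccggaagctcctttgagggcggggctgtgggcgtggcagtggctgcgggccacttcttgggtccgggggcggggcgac
Nfkbid (chr7:30422156-30422405, plus strand): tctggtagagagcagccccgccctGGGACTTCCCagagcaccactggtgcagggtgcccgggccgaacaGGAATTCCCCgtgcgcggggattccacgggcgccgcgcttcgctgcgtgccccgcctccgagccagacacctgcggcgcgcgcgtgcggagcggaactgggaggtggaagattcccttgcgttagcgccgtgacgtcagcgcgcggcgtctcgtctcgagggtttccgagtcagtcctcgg
Tnfaip3 (chr10:19015411-19015660, minus strand): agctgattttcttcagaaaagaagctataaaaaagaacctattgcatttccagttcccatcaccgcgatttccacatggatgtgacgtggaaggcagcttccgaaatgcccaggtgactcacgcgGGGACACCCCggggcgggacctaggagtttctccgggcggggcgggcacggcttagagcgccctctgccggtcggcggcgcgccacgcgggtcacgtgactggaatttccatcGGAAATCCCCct
Rela (chr19:5637291-5637540, plus strand): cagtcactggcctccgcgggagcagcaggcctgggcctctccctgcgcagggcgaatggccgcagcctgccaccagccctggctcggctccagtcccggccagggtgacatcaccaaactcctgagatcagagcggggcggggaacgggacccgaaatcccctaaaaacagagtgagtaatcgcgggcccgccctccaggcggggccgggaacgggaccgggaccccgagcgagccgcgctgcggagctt
Birc3 (chr9:7873171-7873420, minus strand): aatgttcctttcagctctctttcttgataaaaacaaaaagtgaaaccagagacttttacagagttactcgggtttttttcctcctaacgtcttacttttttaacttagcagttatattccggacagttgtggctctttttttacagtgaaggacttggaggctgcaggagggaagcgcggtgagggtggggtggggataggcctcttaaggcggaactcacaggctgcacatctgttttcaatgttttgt
Among the promoters shown, the match lay closest to the start site in Nfkb2 (11 bases before it), Tnfaip3 (12 bases) and Nfkbia (29 bases), counted from the first base of the match. In the Nfkb2 promoter shown, the matches starting at 39 and 38 bases overlap. A match is a description of these letters only.

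Nfkbia, which encodes IkB alpha, the inhibitor that is degraded and made again in each round of canonical signaling, had the highest level per length in all 6 groups. In the spleen of PBS controls it stood at 150.1 ± 5.17 CPM per kb of exon (SD, n = 3). Nfkb2, which encodes the p100 precursor of p52, followed at 68.8 ± 5.31, and Birc3, the ubiquitin ligase cIAP2, at 57.7 ± 2.02 CPM per kb. Rela (p65) stood at 47.0 ± 2.40 and Nfkbie (IkB epsilon) at 40.6 ± 1.48 CPM per kb. Nfkb1 (p105 and p50) and Rel (c-Rel) came next at 36.1 ± 0.549 and 35.9 ± 2.35 CPM per kb, and their libraries overlapped. Relb stood at 26.0 ± 0.668 and Nfkbid (the nuclear IkB protein IkBNS) at 20.3 ± 0.966 CPM per kb. Tnfaip3, which encodes the deubiquitinase A20, was lowest at 10.1 ± 0.684 CPM per kb. All other neighbors in this order were separated in the spleen of PBS controls.

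Rel moved furthest in the order between the PBS groups, from rank 7 in the spleen to rank 2 in PP, while Nfkb1 went from 6 to 9 and Tnfaip3 from 10 to 8. Rel stood in PP of PBS controls at 58.5 ± 23.1 CPM per kb, though its libraries overlapped those of Nfkb2 at 52.1 ± 3.53 CPM per kb. Tnfaip3 stood at 28.2 ± 9.62 CPM per kb and overlapped Nfkb1 at 28.0 ± 1.41 CPM per kb, which in turn overlapped Relb at 26.1 ± 2.26 CPM per kb. With soluble OVA the PP levels ran below Nfkbia (66.1 ± 4.32 CPM per kb) from Rela at 33.7 ± 3.86 to Tnfaip3 at 12.0 ± 2.76 CPM per kb. Nfkb2 shares 830 bases, 18.1% of its exon bases, with the overlapping genes AC114539.1 and Psd, so its reads could be divided among them. The other 9 members share no exon bases with another gene.

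**Figure D1:**
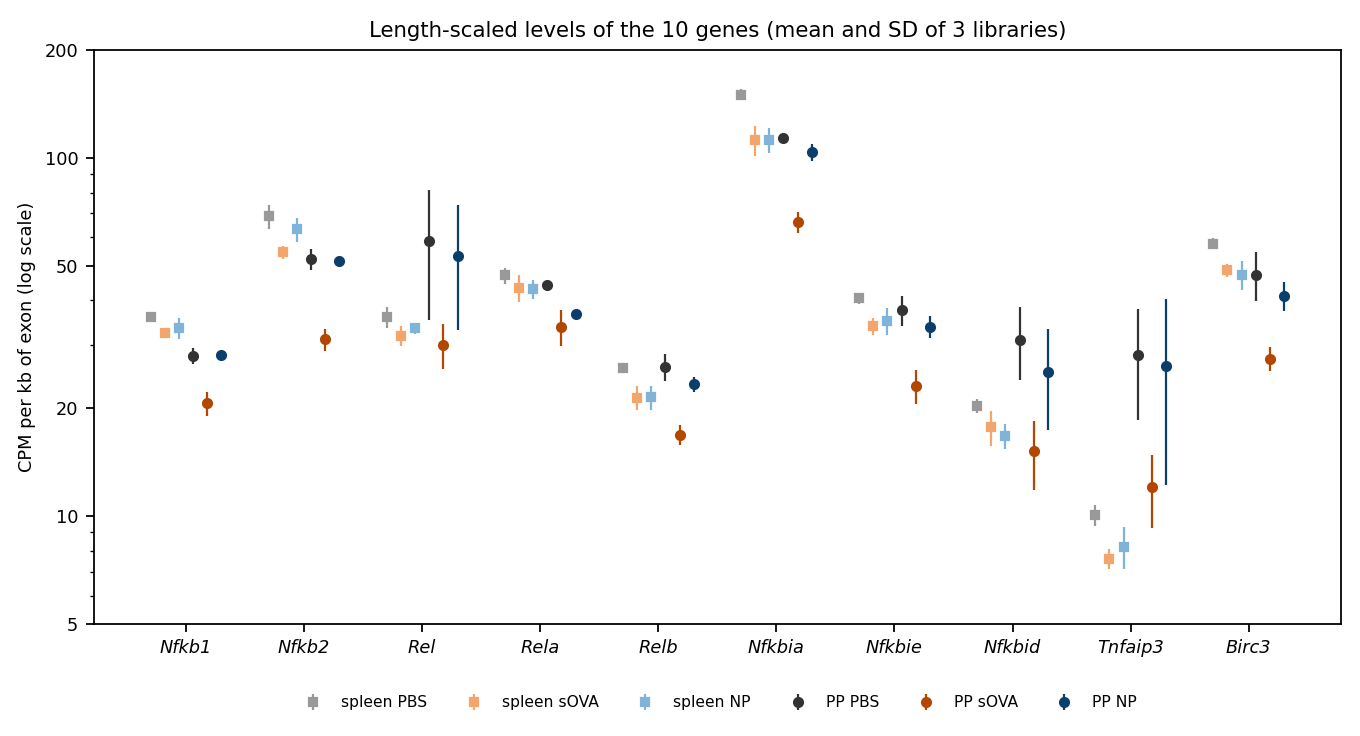
Mean level of each gene in CPM per kb of exon (log axis) with the SD of 3 libraries as bars. Squares are spleen and circles are PP groups given PBS, soluble OVA (sOVA) or OVA NPs (NP). Nfkbia is highest in every group, and Tnfaip3 is lowest in the spleen but about level with Nfkb1 and Relb in PP of PBS controls.

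In the spleen, OVA NP treatment was compared with PBS to see how the circuit stood 2 days after the second dose. 5 of the 10 genes were lower with OVA NPs and none was higher, beside 6.35% of all 14200 genes tested that were called lower. A call needed a log2 fold change of more than 0.25 in either direction and an adjusted p below 0.05 (edgeR's quasi-likelihood test with Benjamini-Hochberg adjustment over all genes tested). 4 of the 5 called genes were inhibitors or regulators. The median log2 fold change of the 10 genes was -0.24, beside 0.00062 for all genes.

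Nfkbia showed the largest drop. Its level was 237.8, 251.3 and 236.1 CPM in the 3 PBS libraries and 164.7, 186.7 and 192.2 CPM in the 3 OVA NP libraries. The groups did not overlap, and the level fell by 24.7% (log2 fold change -0.41 ± 0.060 SE, adjusted p = 0.000278 from edgeR). Birc3, at 289.4, 278.4 and 298.7 CPM with PBS and 219.0, 228.4 and 260.4 CPM with OVA NPs, also showed no overlap and fell by 17.9% (log2 fold change -0.29 ± 0.063, adjusted p = 0.00518 from edgeR). Relb, the partner of p52 in the noncanonical dimer, went from 98.1, 103.2 and 101.2 CPM to 77.4, 82.8 and 89.7 CPM. It was the only subunit called, with every OVA NP library below every PBS library (log2 fold change -0.27 ± 0.058, adjusted p = 0.00456 from edgeR).

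Nfkbid ran at 45.3 to 49.8 CPM with PBS and 35.7 to 41.5 CPM with OVA NPs (log2 fold change -0.27 ± 0.070, adjusted p = 0.0121 from edgeR). Tnfaip3 was the weakest call. Its OVA NP libraries stood at 52.7, 57.1 and 68.1 CPM, and the highest of them overlapped the PBS libraries at 77.3, 67.5 and 73.9 CPM (log2 fold change -0.29 ± 0.086, adjusted p = 0.0376 from edgeR). Nfkbie passed the adjusted p but not the fold cutoff (log2 fold change -0.20, adjusted p = 0.0281 from edgeR), although its groups did not overlap. Nfkb1, Nfkb2, Rel and Rela had log2 fold changes of -0.09 to -0.12 and were not called. In all, 5 genes had groups that did not overlap with OVA NPs lower, beside 18.3% of all genes tested. In the same fit 5 of the 6 germinal center markers rose, as did Fos, Fosb, Hspa1a and Hspa1b among the 10 immediate-early and heat shock genes, while Egr1 and Ier2 fell. Of the 4 plasma cell markers Xbp1 (log2 fold change 0.81) and Jchain (1.49) rose. The part of these shifts in the lower NF-kB transcripts was not tested. Without OVA NP library 1 only Nfkbia was called, 1 gene in place of 5, and without PBS library 3 the count was 3 (Nfkbid and Tnfaip3 lost). Tnfaip3 was also lost without PBS library 1 or OVA NP library 2, leaving 4 calls each, and Nfkbie was gained without OVA NP library 3, giving 6.

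**Figure D2:**
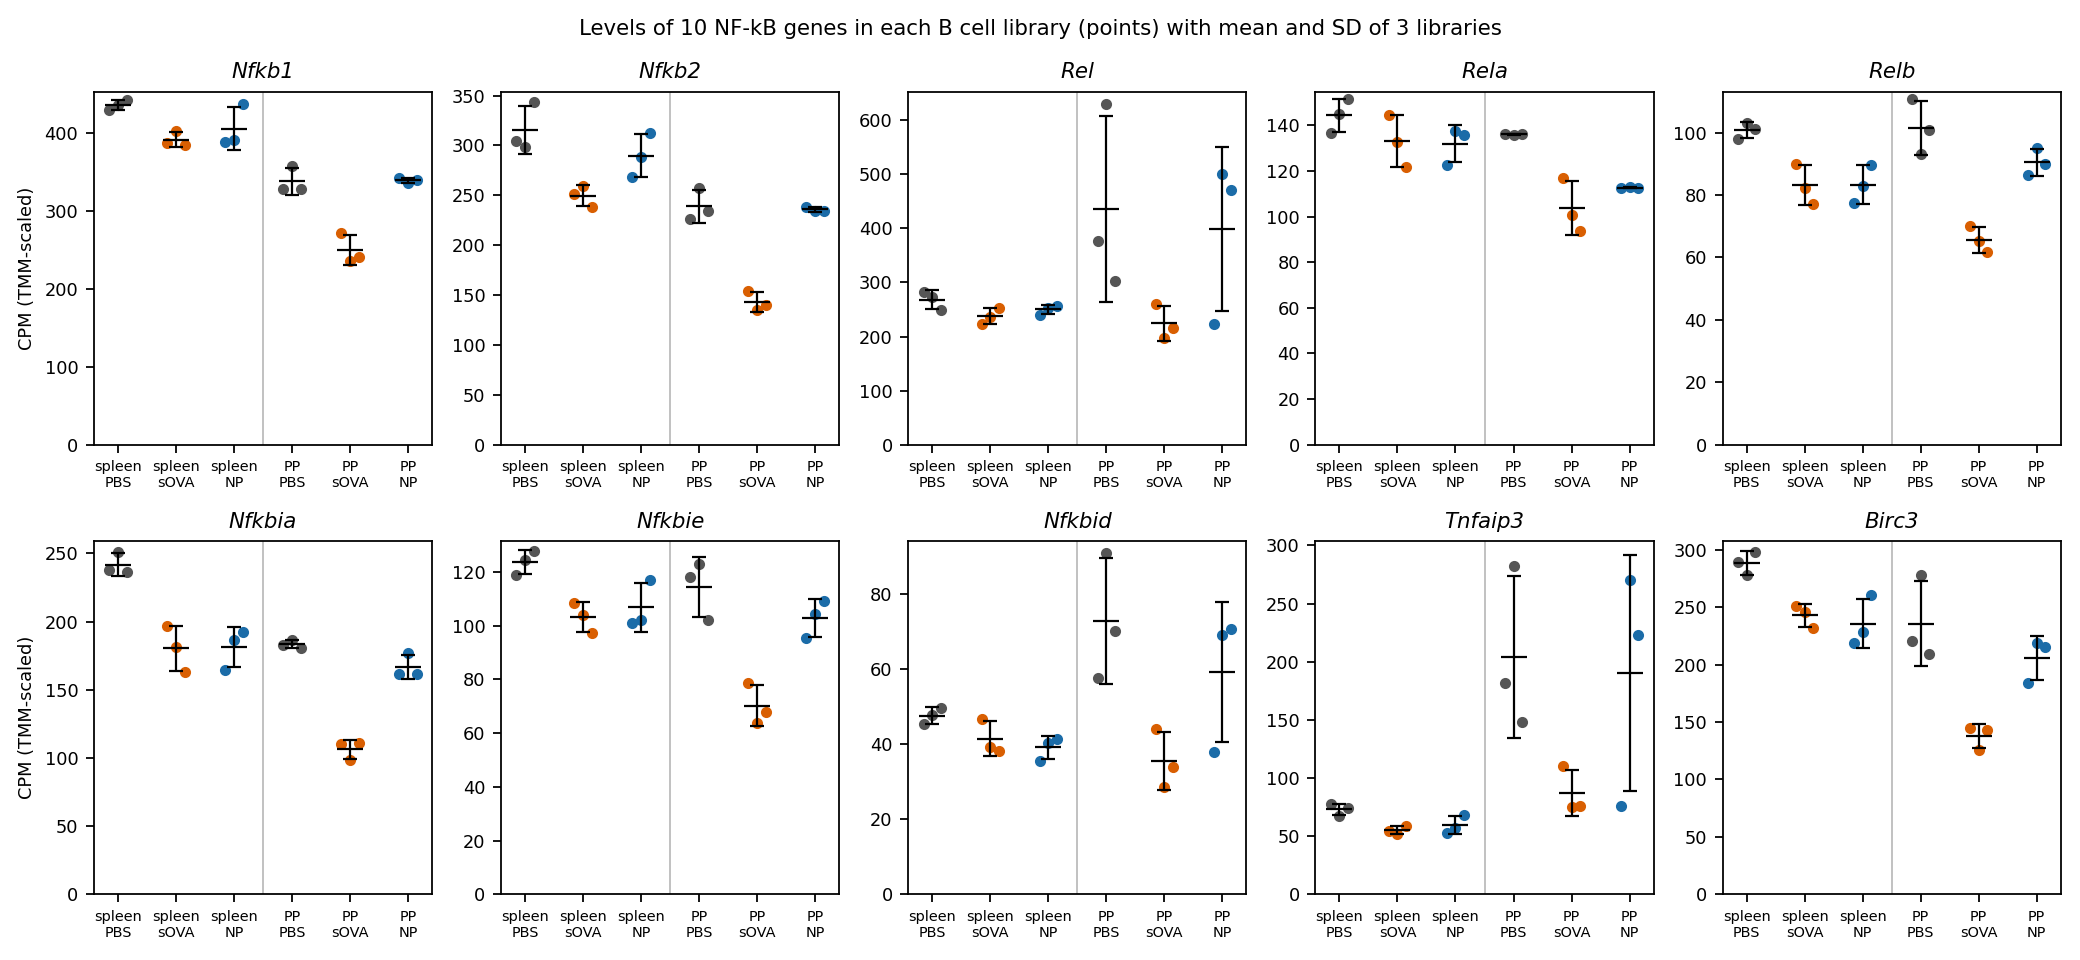
Level of each of the 10 genes in TMM-scaled CPM (vertical axes, each from 0) in the 6 groups. Points are libraries, and the bar and whiskers are the mean and SD of 3 libraries; gray is PBS, orange soluble OVA (sOVA) and blue OVA NP (NP). PP libraries given soluble OVA are lowest among PP groups in mean for all 10 genes, and Rel, Nfkbid and Tnfaip3 scatter widely among the PP libraries of PBS and OVA NP groups.

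Soluble OVA in the spleen was compared with the same PBS libraries, so the 2 comparisons share their controls. 5 genes were lower and none was higher, beside 6.72% of 14128 genes tested called lower, and the median log2 fold change of the 10 genes was -0.25 (all genes -0.0082). Nfkbia stood at 196.6, 181.1 and 163.1 CPM with soluble OVA, below all PBS libraries, and fell by 25.3% (log2 fold change -0.42 ± 0.069, adjusted p = 0.000772 from edgeR). Tnfaip3 stood at 54.2, 51.9 and 58.9 CPM, again with no overlap, and fell by 24.5% (adjusted p = 0.0013 from edgeR). Nfkb2 was at 251.7, 259.2 and 238.1 CPM with soluble OVA and 304.7, 298.4 and 343.4 CPM with PBS (log2 fold change -0.34 ± 0.069, adjusted p = 0.00361 from edgeR).

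Relb (log2 fold change -0.28 ± 0.064) and Nfkbie (-0.26 ± 0.061) were the other genes called in the spleen with soluble OVA. Birc3 fell just short of the fold cutoff at -0.247 (adjusted p = 0.0105 from edgeR), with 251.7, 245.7 and 232.0 CPM against PBS libraries of 278.4 CPM and above. Nfkb1, Rel, Rela and Nfkbid had log2 fold changes of -0.12 to -0.20 and were not called. 7 of the 10 genes had groups that did not overlap, beside 18.4% of all genes tested. All 6 germinal center markers rose in this fit, as did the plasma cell markers Xbp1 (log2 fold change 0.62) and Jchain (1.08), while the myeloid markers Itgam (-1.11) and Adgre1 (-0.61) fell. The part of these shifts in the result was not tested. The count was 3 without soluble OVA library 3 (Nfkbie and Relb lost), 4 without PBS library 3 (Nfkbie lost), 6 without PBS library 2 or soluble OVA library 2 (Birc3 gained) and 7 without soluble OVA library 1 (Birc3 and Nfkbid gained).

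OVA NPs and soluble OVA were compared directly to see whether the form of the antigen mattered in the spleen. None of the 10 genes was called by edgeR or DESeq2, and only Nfkb2 had an unadjusted p under 0.05. Of all 13840 genes tested, 0.238% were called by edgeR and 0.759% by DESeq2, and 8.66% had an unadjusted p under 0.05. Nfkb2 stood at 268.4, 288.7 and 312.1 CPM with OVA NPs, above the soluble OVA libraries (log2 fold change 0.22, 95% interval 0.06 to 0.38, adjusted p = 0.376 from edgeR). The other 9 genes had log2 fold changes between -0.08 and 0.12. The intervals left room for modest differences, from -0.16 to 0.19 for Nfkbia and from -0.08 to 0.31 for Tnfaip3.

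In PP, nearly the whole circuit was lower with soluble OVA than with PBS. 9 of the 10 genes were called lower and none higher, beside 13.9% of 15792 genes tested called lower, and the median log2 fold change of the 10 genes was -0.77 (all genes -0.017). For all 10 genes every soluble OVA library lay below every PBS library, a separation found for 24% of all genes tested. Nfkbia stood at 182.5, 186.6 and 180.8 CPM with PBS and 110.4, 98.5 and 110.7 CPM with soluble OVA. Each group was tight and the level fell by 42.4% (log2 fold change -0.80 ± 0.070, adjusted p = 0.000109 from edgeR).

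Among the subunits, Nfkb2 fell most of those called, by 40.7%, from 225.8, 256.9 and 233.9 CPM to 154.2, 134.8 and 139.7 CPM (log2 fold change -0.75 ± 0.077, adjusted p = 2e-04 from edgeR). Relb followed, from 110.7, 93.1 and 100.7 CPM to 70.1, 65.2 and 61.6 CPM (log2 fold change -0.64 ± 0.085, adjusted p = 0.000728 from edgeR). Both encode the noncanonical dimer or its precursor. Nfkb1 fell by 26.8% (adjusted p = 0.00223 from edgeR) and Rela by 24.5% (adjusted p = 0.00686 from edgeR). Rel was not called although its groups were apart, with 375.9, 631.1 and 302.8 CPM in PBS and 259.5, 197.5 and 215.5 CPM in soluble OVA libraries (log2 fold change -0.97, 95% interval -1.75 to -0.19, adjusted p = 0.0729 from edgeR and 0.0294 from DESeq2).

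Among the inhibitors and regulators, Tnfaip3 and Nfkbid fell most on the log2 scale. Tnfaip3 dropped from 181.4, 282.0 and 148.5 CPM to 110.0, 75.3 and 75.7 CPM (log2 fold change -1.24 ± 0.294, adjusted p = 0.0336 from edgeR). Nfkbid went from 57.8, 91.0 and 70.2 CPM to 44.0, 28.7 and 34.0 CPM (log2 fold change -1.05 ± 0.216, adjusted p = 0.0153 from edgeR). Birc3 fell by 42.0%, from 220.8, 277.9 and 209.0 CPM to 144.5, 125.8 and 143.1 CPM (adjusted p = 0.000917 from edgeR). Nfkbie fell by 39.2% (adjusted p = 0.000788 from edgeR). 5 of the 6 germinal center markers rose in the same fit. 6 of the 10 immediate-early and heat shock genes fell, including Junb and Ier2. The B cell marker Cd79a (log2 fold change -0.39) and the myeloid marker Lyz2 (-0.41) fell, and the plasma cell marker Jchain (0.35) rose. The part of these shifts in the NF-kB result was not tested. With the replicate number as a block Nfkbid and Tnfaip3 were not called (adjusted p = 0.0796 and 0.0607 from edgeR), nor was Tnfaip3 with no filter on low counts (0.106). Nfkbid, Rela and Tnfaip3 lost their calls without soluble OVA library 2 or 3, leaving 6. The count was 8 without PBS library 1 (Tnfaip3 lost), 9 without PBS library 3 (Nfkbid lost, Rel gained) and 10 without PBS library 2.

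With OVA NPs in PP the picture was different in its counts. None of the 10 genes was called against PBS, with 0% of 15798 genes called by edgeR. At an unadjusted p under 0.05 there was 1 gene, Rela, beside 9.96% of all genes, and DESeq2 also called only Rela, beside 0.943% of all genes. Rela stood at 136.1, 135.8 and 136.3 CPM with PBS and 112.5, 112.9 and 112.4 CPM with OVA NPs. The groups were far apart compared with their own spread, and the log2 fold change was -0.26 (95% interval -0.40 to -0.12, adjusted p = 0.261 from edgeR and 0.0403 from DESeq2). The highest and lowest libraries of each group differed by a factor of only 1.0039 with PBS and 1.0042 with OVA NPs, less than the counting error of 1.75% to 2.32% that counts of 1853 to 3265 carry, so the spread within these 6 libraries was smaller than counting alone would give.

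Nfkbia also showed no overlap, at 161.5, 177.2 and 161.7 CPM with OVA NPs against 180.8 CPM and above with PBS (log2 fold change -0.12, 95% interval -0.28 to 0.03). Rela and Nfkbia were 2 of 10 genes with separate groups and OVA NPs lower, beside 10.1% of all genes tested. Nfkb1 and Nfkb2 sat close to PBS, with log2 fold changes of 0.018 (95% interval -0.13 to 0.17) and -0.0044 (-0.17 to 0.16). The intervals were wide for Rel (-1.21 to 0.96) and Tnfaip3 (-1.46 to 1.27), and for both of these genes they took in the change seen with soluble OVA. That of Nfkbid ran from -0.99 to 0.41 and did not reach its change of -1.05 with soluble OVA. That change had its own 95% interval of -1.57 to -0.52, which overlaps. The direct test of OVA NPs against soluble OVA did not call Nfkbid (adjusted p = 0.123 from edgeR). The mitochondrial share of counts was 9.08 to 9.80% in the OVA NP libraries of PP, 5.41 to 7.67% in its PBS libraries and 4.97 to 6.02% in its soluble OVA libraries, and its part in either comparison with OVA NPs was not tested.

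Set against soluble OVA, 6 of the 10 genes were higher with OVA NPs in PP and none was lower, beside 13.8% of 15599 genes tested called higher. Nfkb2 was at 238.7, 234.6 and 234.7 CPM with OVA NPs, above all soluble OVA libraries (log2 fold change 0.74 ± 0.084, adjusted p = 0.000564 from edgeR). Nfkbia showed a log2 fold change of 0.66 ± 0.083 (adjusted p = 0.000782 from edgeR). Birc3, at 184.0, 218.9 and 215.7 CPM with OVA NPs, had 0.59 ± 0.093 (adjusted p = 0.00194 from edgeR).

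Nfkbie (0.56), Relb (0.48) and Nfkb1 (0.45) completed the genes called, and the same 6 genes were those whose OVA NP and soluble OVA libraries did not overlap (23.1% of all genes tested had OVA NPs higher with no overlap). Rela was not called, with a log2 fold change of 0.13 (95% interval -0.09 to 0.35). Nor did edgeR call Rel (0.83, -0.03 to 1.69), Nfkbid (0.74, -0.007 to 1.49) or Tnfaip3 (1.13, -0.27 to 2.52), with adjusted p = 0.13, 0.123 and 0.187. 5 of 6 germinal center markers were lower with OVA NPs, 4 of 6 T cell markers were higher (Lck, which makes up most of that list's level, was lower), and 3 of 6 myeloid markers (Lyz2, Csf1r and Cd14) and the NK cell marker Nkg7 (log2 fold change 1.39) were higher. Their part, and that of the higher mitochondrial share of these libraries, was not tested. Each of the 6 calls held when any single library was left out. Without OVA NP library 1 the count was 9, with Rel (log2 fold change 1.06), Nfkbid (0.92) and Tnfaip3 (1.45) added.

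**Figure D3:**
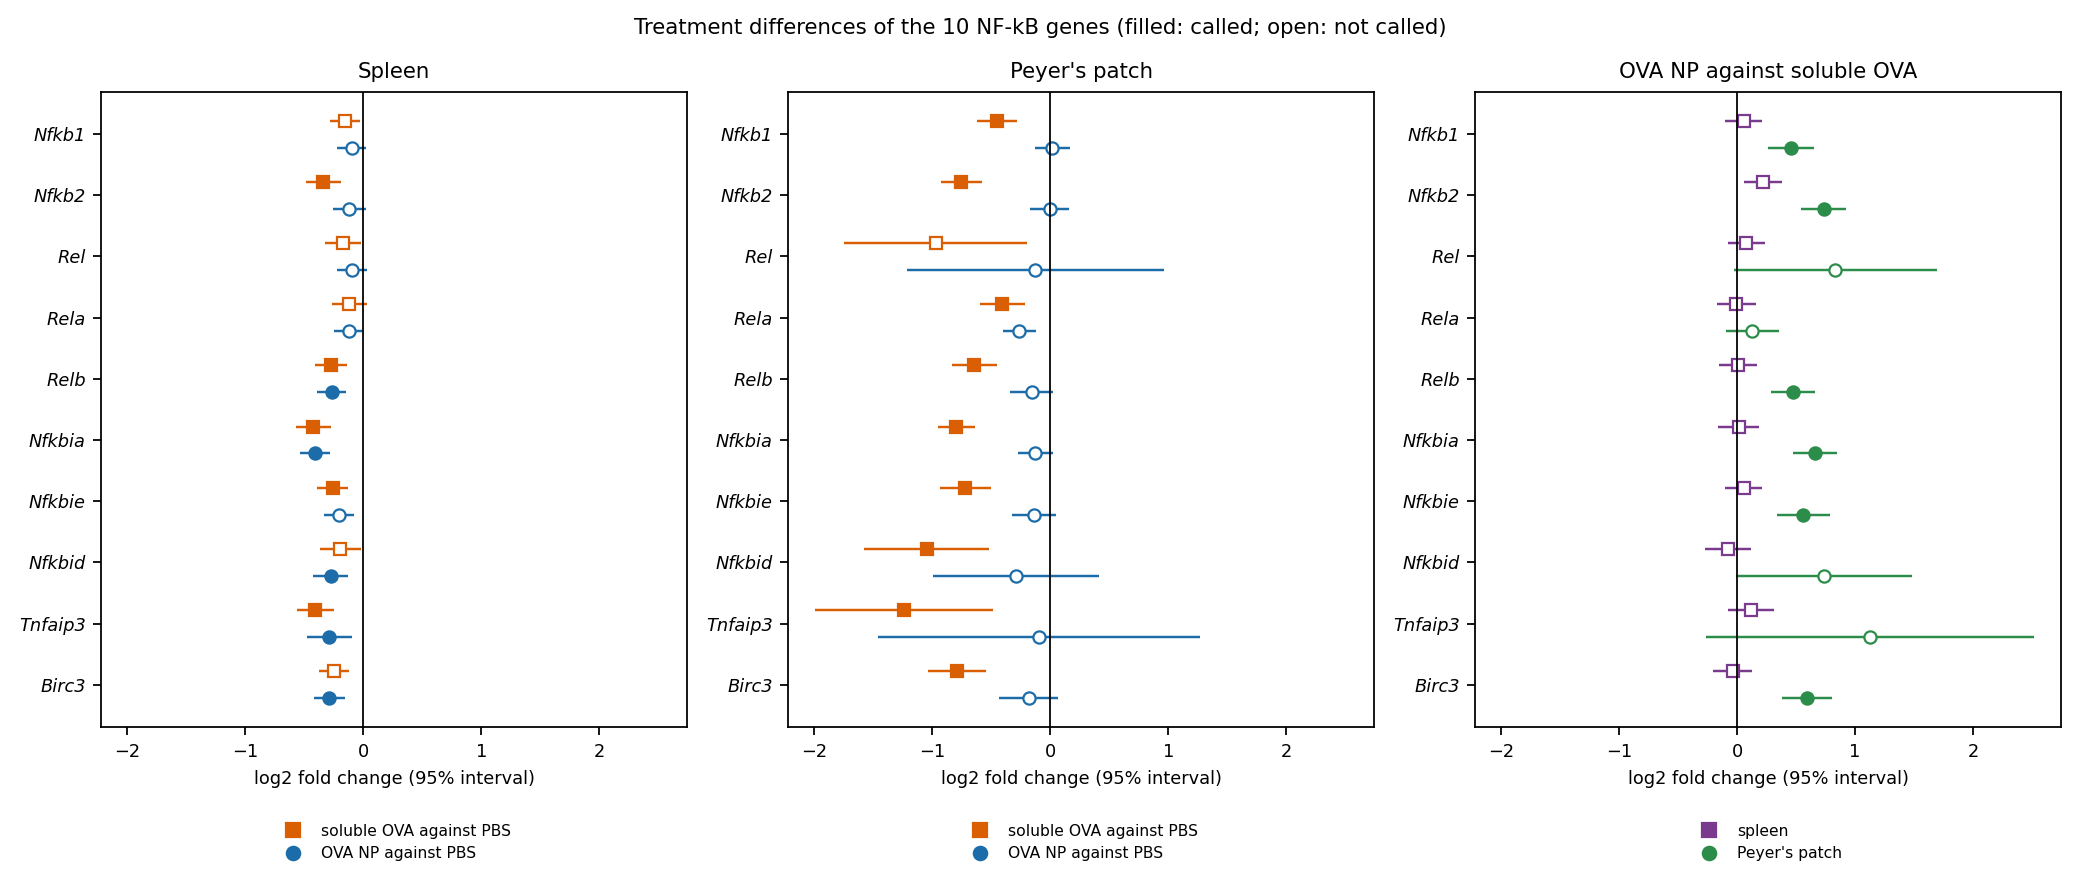
Log2 fold change (horizontal axis) with its 95% interval for each gene. The left and middle panels give soluble OVA (orange squares) and OVA NP (blue circles) against PBS in spleen and PP, and the right panel OVA NP against soluble OVA in spleen (purple squares) and PP (green circles); filled marks were called. Soluble OVA in PP stands furthest from 0, while OVA NP in PP has no filled mark.

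Rel, Nfkbid and Tnfaip3 had the highest ratios of the 10 genes between the highest and lowest PP library within the PBS and the OVA NP groups. Among the OVA NP libraries Tnfaip3 stood at 75.9, 270.7 and 223.3 CPM, a highest-to-lowest ratio of 3.57 that was exceeded by 32 of 9291 genes of at least 10 CPM (0.344%). Rel stood at 223.9, 500.6 and 470.4 CPM and Nfkbid at 37.9, 69.3 and 70.7 CPM in the same libraries. OVA NP library 1 was low for all 3 genes and lay within the range of the PP soluble OVA libraries. In the PBS group library 2 was highest for all 3 genes, and the ratio was 2.08 for Rel, 1.90 for Tnfaip3 and 1.57 for Nfkbid. The median ratio of all genes was 1.16 with OVA NPs and 1.17 with PBS. With soluble OVA the PP ratios were lower, at 1.54 for Nfkbid, 1.46 for Tnfaip3 and 1.31 for Rel, beside 1.25 for Rela and 1.23 for Nfkbie. In the spleen, the same 3 genes had ratios of 1.07 to 1.29 within each group.

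In the OVA NP group of PP, the library that stood apart in these genes also stood apart in immediate-early genes, which are induced within minutes of a stimulus or of handling. Of the 10 genes of that list, 7 were lowest in OVA NP library 1 among the OVA NP libraries of PP (Fos, Fosb, Junb, Egr1, Ier2, Dusp1 and Atf3), while Jun and the heat shock genes Hspa1a and Hspa1b were highest there. Fosb stood at 45.3, 165.1 and 135.3 CPM and Hspa1b at 2115, 470.6 and 667.2 CPM in OVA NP libraries 1 to 3. In the PBS group the order was less uniform, with 5 of the 10 highest in library 2, 4 highest in library 3 and 9 lowest in library 1. The list summed to 2216 to 4541 CPM in PP and 414.8 to 498.2 CPM in the spleen. In OVA NP libraries 1 to 3 of PP the epithelial markers summed to 566.6, 285.7 and 360.4 CPM, highest in library 1. The germinal center markers summed there to 680.9, 1048 and 1036 CPM, lowest in library 1. In PBS libraries 1 to 3 of PP the epithelial markers summed to 283.8, 129.9 and 408.2 CPM, lowest in library 2. The germinal center markers summed there to 1050, 989.4 and 867.5 CPM. The part of handling, epithelial cells, germinal center cells or treatment in the spread of Rel, Nfkbid and Tnfaip3 was not tested.

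**Figure D4:**
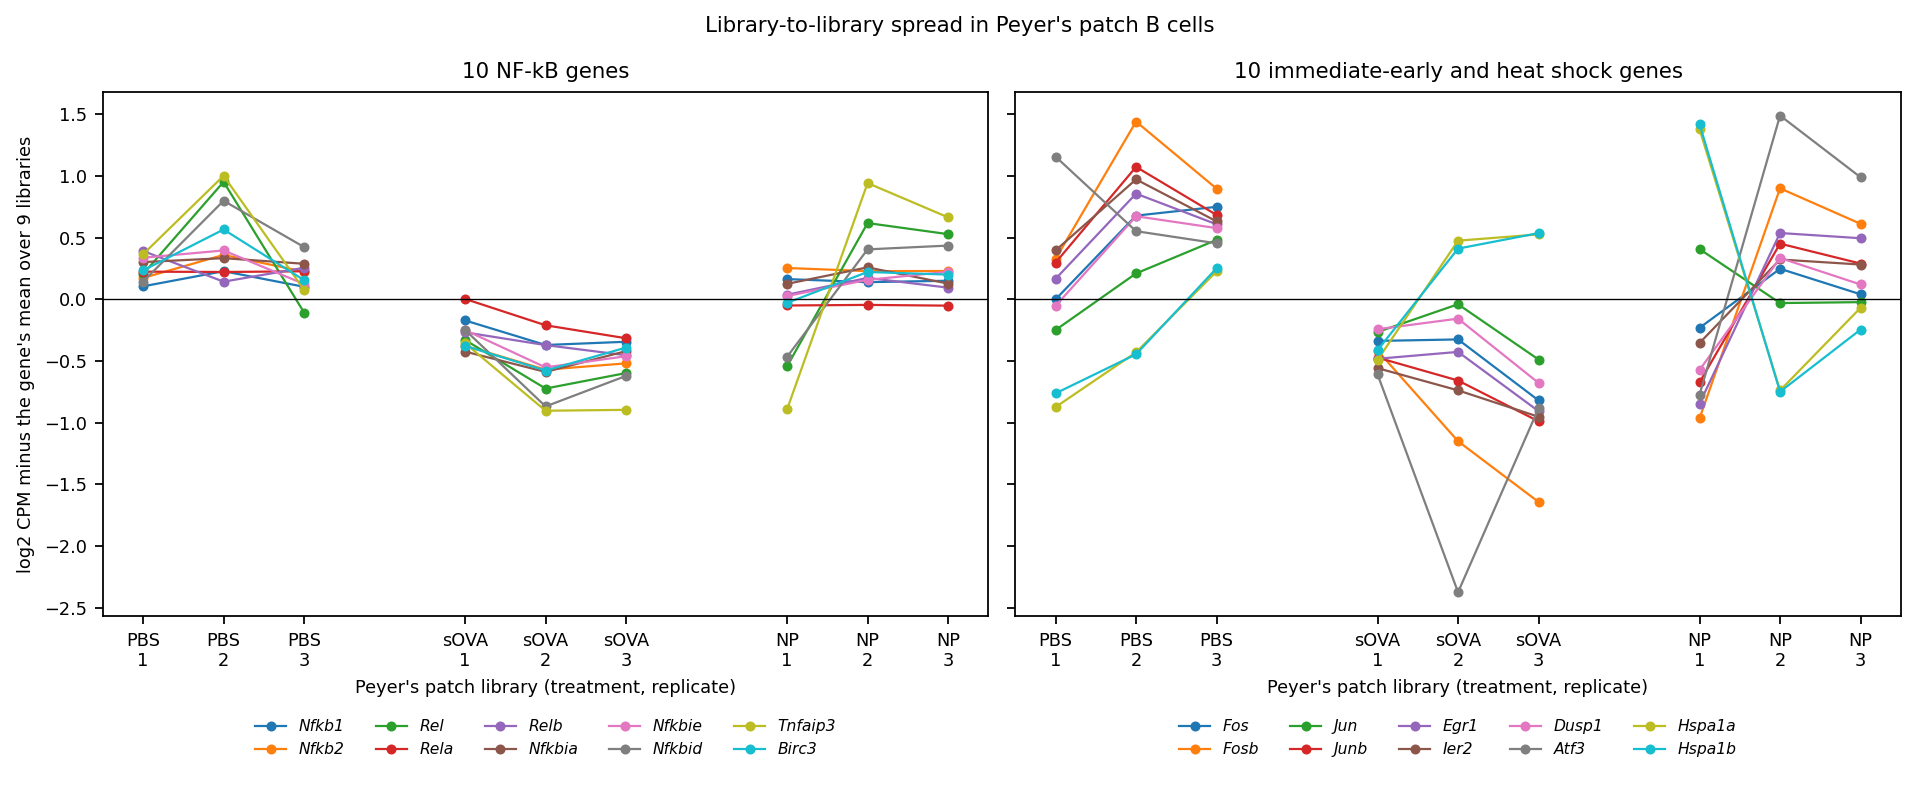
Log2 CPM of each gene minus its mean over the 9 PP libraries (vertical axis) by library (horizontal axis), for the 10 NF-kB genes (left) and 10 immediate-early and heat shock genes (right). Lines only join the libraries of one group, which have no order. In the OVA NP group, library 1 is low for Rel, Nfkbid and Tnfaip3 and for 7 immediate-early genes, and high for Jun, Hspa1a and Hspa1b.

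B cells of the 2 tissues were compared within each treatment. In PBS controls 2 of the 10 genes were higher in PP and 4 lower, beside 25.5% and 20.1% of 15463 genes tested. In either direction 45.6% of all genes were called, so no result about the set is read from these counts. Tnfaip3 was higher in PP, at 148.5 to 282.0 CPM against 67.5 to 77.3 CPM in the spleen, and Nfkbid was higher at 57.8 to 91.0 against 45.3 to 49.8 CPM. The fold changes were 2.81 (log2 1.49 ± 0.236, adjusted p = 0.00366 from edgeR) and 1.54 (log2 0.62 ± 0.141, adjusted p = 0.0072 from edgeR). Nfkb1 (log2 fold change -0.35), Nfkb2 (-0.38), Nfkbia (-0.38) and Birc3 (-0.28) were lower in PP. All 10 immediate-early and heat shock genes were higher in PP, as were all 6 germinal center markers, all 3 epithelial markers, all 4 T cell markers tested and 3 of 4 plasma cell markers, while 3 of 4 B cell markers and 2 of 6 myeloid markers were lower. The part of these lists was not tested. Birc3 lost its call in 5 of the 6 fits that left out 1 library, all but that without PP library 2. Rel, with a log2 fold change of 0.71 and an adjusted p of 0.0885 from edgeR, was gained without PP library 2 or 3 (7 and 6 calls).

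With soluble OVA 7 of the 10 genes were lower in PP and 1 was higher, beside 24.3% and 26.7% of 15415 genes tested. Birc3 (log2 fold change -0.82 ± 0.076, adjusted p = 1.95e-05 from edgeR), Nfkb2 (-0.81 ± 0.075) and Nfkbia (-0.76 ± 0.085) stood furthest apart, followed by Nfkb1 (-0.65), Nfkbie (-0.56), Rela (-0.36) and Relb (-0.34). Tnfaip3 was again higher in PP, at 75.3 to 110.0 against 51.9 to 58.9 CPM (log2 fold change 0.66 ± 0.151, adjusted p = 0.00745 from edgeR). Rel and Nfkbid had log2 fold changes of -0.08 and -0.22 and were not called. All 6 germinal center, all 3 epithelial, 3 of 4 plasma cell and 3 of 5 T cell markers were higher in PP, as were 9 of the 10 immediate-early and heat shock genes, while 3 of 4 B cell markers were lower. Their part was not tested. Without PP library 3 Rela was lost (7 calls), and without PP library 1 Nfkbid was gained (9 calls).

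With OVA NPs none of the 10 genes was called between the tissues by edgeR, beside 37.1% of 15466 genes tested, although 6 had an unadjusted p under 0.05 (49.3% of all genes) and DESeq2 called 3, namely Rel, Nfkbid and Tnfaip3 (36.6% of all genes). Tnfaip3 had the largest fold change of the set, 3.29, with every PP library above every spleen library (log2 1.72, 95% interval 0.36 to 3.08, adjusted p = 0.0561 from edgeR). Nfkb1, Nfkb2 and Rela passed the adjusted p with log2 fold changes of -0.21, -0.25 and -0.18 that fell short of the fold cutoff. All 10 immediate-early and heat shock genes, all 6 germinal center, all 3 epithelial, all 6 T cell and 3 of 4 plasma cell markers were higher in PP and all 4 B cell markers were lower, and their part was not tested. Leaving out PP library 1 gave 4 calls, Tnfaip3 (log2 fold change 2.08), Rel (0.98), Nfkbid (0.86) and Nfkb2 (-0.28). Without spleen library 1 or 2 there was 1, Nfkb2. The fits that left out 1 library called 4814 to 6276 of all genes, beside 5735 in the main fit. The 4 of 10 was near the 37.1% of all genes called in the main fit, so no result about the set is read from it.

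**Figure D5:**
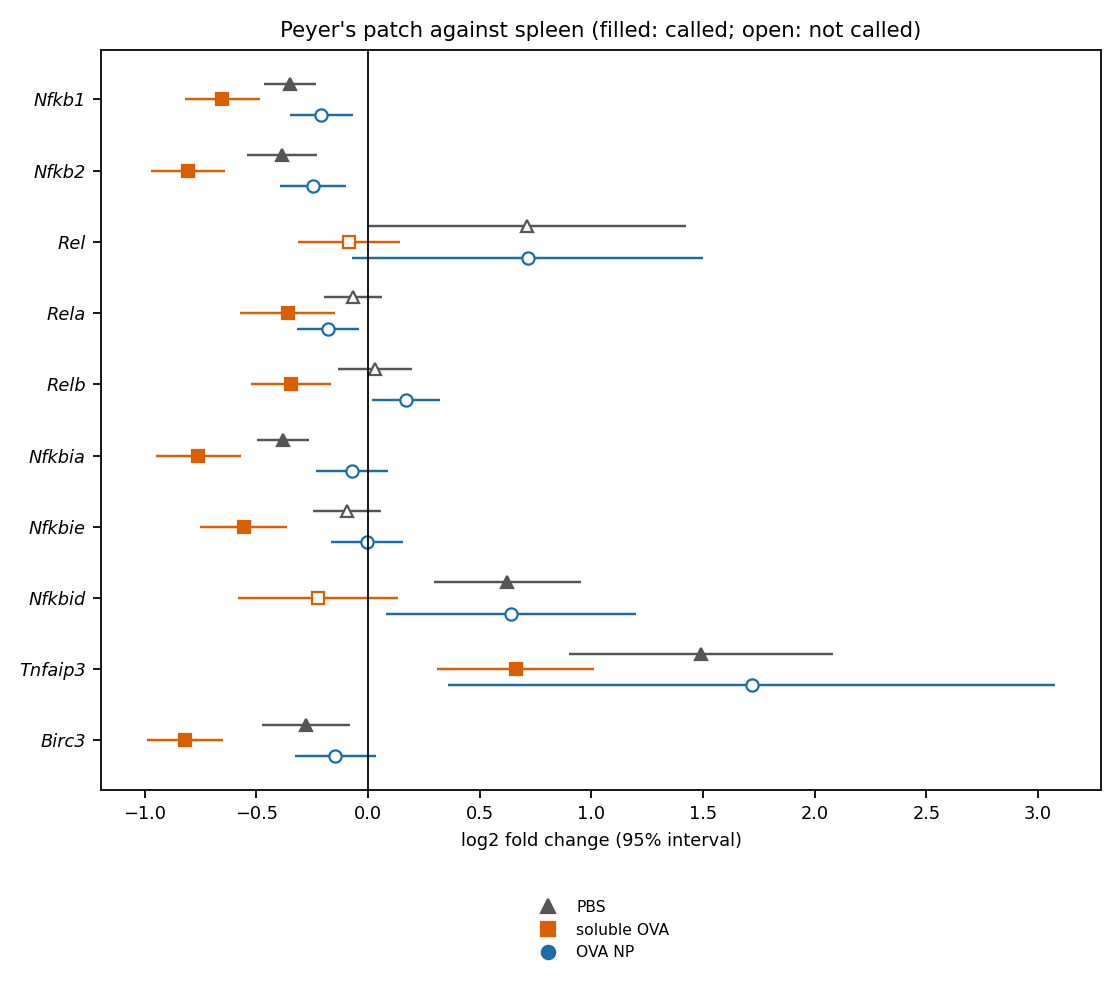
Log2 fold change of PP against spleen (horizontal axis) with its 95% interval for each gene in PBS (gray triangles), soluble OVA (orange squares) and OVA NP (blue circles) groups. Filled marks were called. Tnfaip3 lies to the right of 0 under all 3 treatments, and Nfkb1, Nfkb2, Nfkbia and Birc3 lie furthest to the left with soluble OVA.

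Whether a treatment acted differently in the tissues was tested by the interaction of tissue and treatment, called at an adjusted p under 0.05. For OVA NPs against PBS, edgeR called none of the 10 genes, beside 4.42% of 16619 genes tested. 1 gene, Nfkbia, had an unadjusted p under 0.05, beside 18.7% of all genes, and was called by DESeq2. Its log2 fold change was higher in PP than in the spleen by 0.30 (95% interval 0.11 to 0.49, adjusted p = 0.075 from edgeR), and the call was gained without spleen OVA NP library 3. For soluble OVA against PBS, 4 genes had a lower log2 fold change in PP than in the spleen (Nfkb2, Nfkbia, Nfkbie and Birc3), beside 5.07% of 16541 genes tested called in that direction. All 10 had an unadjusted p under 0.05, beside 21% of all genes. The 4 calls were often lost when 1 library was left out. No member passed without spleen PBS library 1 or 2, spleen soluble OVA library 1 or 2, or PP soluble OVA library 2 or 3. The count was 2 without spleen PBS library 3 or PP PBS library 2 or 3, 3 without PP PBS library 1 and 8 without PP soluble OVA library 1. Over all genes, 1131 were called in the main fit and 655 to 1279 with 1 library left out. Over all alternatives the differences stayed negative, at -0.47 to -0.33 for Nfkb2, -0.42 to -0.29 for Nfkbia, -0.54 to -0.37 for Nfkbie and -0.61 to -0.39 for Birc3.

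For OVA NPs against soluble OVA more of the calls held when a library was left out. 6 genes (Nfkb1, Nfkb2, Relb, Nfkbia, Nfkbie and Birc3) were called, each with the higher value in PP, beside 7.97% of 16471 genes tested called in that direction. Nfkbia differed by 0.66 ± 0.117 on the log2 scale (adjusted p = 0.00209 from edgeR) and Birc3 by 0.64 ± 0.119 (adjusted p = 0.00271 from edgeR). Nfkb1 lost its call without spleen OVA NP library 2, leaving 5, and without PP OVA NP library 1 the count was 9, with Rel, Nfkbid and Tnfaip3 added.

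Other genes of the pathway were followed through 56 genes in 6 lists by role. In PP with soluble OVA against PBS, 21 of them were lower and 3 higher, beside 13.9% and 13.5% of all genes tested, with a median log2 fold change of -0.20 (all genes -0.017). Among receptors Cd40, which carries T cell help to the B cell, was lower (log2 fold change -0.63 ± 0.078, adjusted p = 0.000519 from edgeR), as was the TACI gene Tnfrsf13b (-0.37). Of 10 genes that relay antigen receptor signals to and through the IKK complex 2 were lower, the kinase Ikbkb (-0.73 ± 0.075, adjusted p = 0.000202 from edgeR) and Malt1 (-0.67). In the noncanonical branch Map3k14, the gene of NIK, and Traf3, which holds NIK down, were both lower (-0.39 and -0.42). Of 10 genes of linear ubiquitin (Rnf31, Rbck1 and Sharpin among them) or negative regulation, 4 were lower and none higher. Tnip2 (-0.46) and Rnf11 (-0.43) came first. Nfkbiz and Bcl3, nuclear IkB proteins like IkBNS, were lower (-0.73 and -0.46), and Nfkbil1 was higher (0.31). Of the 15 pathway genes the naming rule gave for this comparison, targets included, 5 lost their call in at least 1 of the 6 fits that left out 1 library. Malt1 (log2 fold changes of -0.76 to -0.44 over these fits, the smallest without PBS library 2) and Traf3 (-0.45 to -0.30) lost it without soluble OVA library 2 or 3. Map3k14 (-0.50 to -0.26) kept it only without soluble OVA library 1 and Rnf11 (-0.49 to -0.26) only without PBS library 3. Ccr7 (-2.74 to -2.05) lost it without soluble OVA library 2.

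Of 19 known target genes in PP, 9 were lower with soluble OVA and 2 higher, against the same 13.9% and 13.5% of all genes. Ccr7, the chemokine receptor that guides cells to the T zone, had a log2 fold change of -2.37 ± 0.400 (adjusted p = 0.014 from edgeR), and Ccl4, at a mean of only 2.20 CPM, -2.21. Gadd45b (0.84) and Cd44 (0.33) were higher. With OVA NPs against PBS in PP none of the 56 genes was called. Against soluble OVA, 16 were higher with OVA NPs and 5 lower, beside 13.8% and 16.3% of all genes tested (median log2 fold change 0.15, all genes 0.025), with Malt1 (0.82), Ikbkb (0.65), Traf3 (0.49), Cd40 (0.38), Nfkbiz (0.76), Bcl3 (0.53), Ccl4 (2.10) and Ccl3 (1.87) among those higher and Gadd45b (-0.94), Cd86 (-0.58) and Nfkbil1 (-0.45) among those lower. Tax1bp1 and Rnf11, both at 0.30 to 0.31, led the 3 genes that were higher in the list of linear ubiquitin and negative regulation. Here 7 of the 13 genes given by the rule lost their call in at least 1 of the fits that left out 1 library. Rnf11 (0.23 to 0.31) lost it in all 6 fits and Tax1bp1 (0.22 to 0.33) without any 1 of the OVA NP libraries. Ccl4 (1.53 to 2.50) kept it only without OVA NP library 1, and Ccl3 (1.60 to 2.64) only without that library or soluble OVA library 1. Nfkbiz (0.58 to 0.87) lost it without soluble OVA library 3 or OVA NP library 2 or 3, Cd40 (0.29 to 0.47) without soluble OVA library 2 or 3 and Cd86 (-0.78 to -0.49) without soluble OVA library 1 or 3.

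In the spleen, OVA NPs against PBS left 8 of 54 tested pathway genes lower and 4 higher, beside 6.35% and 8.6% of all genes tested, with a median log2 fold change of -0.09. Those lower included Tnfrsf1b (-0.42), Tnfrsf13b (-0.38), Tab1 (-0.36), Prkcb (-0.26), Map3k14 (-0.27), Tnf (-0.49) and Ccr7 (-0.35). Bcl3 (0.32) and Gadd45b (0.29) were higher. Cd83, an activation marker of B cells and a known target, rose from 228.0 to 442.5 CPM on average (log2 fold change 0.96 ± 0.067, adjusted p = 1.25e-06 from edgeR). Of the 10 genes given by the rule 6 lost their call when 1 library was left out. Gadd45b (0.23 to 0.38) and Prkcb (-0.37 to -0.19) kept it only without OVA NP library 3 and Tnf (-0.69 to -0.33) only without OVA NP library 1. Map3k14 (-0.35 to -0.20) lost it without PBS library 3 or OVA NP library 1 or 2, Tab1 (-0.42 to -0.29) without PBS library 1 or OVA NP library 2, and Tnfrsf1b (-0.50 to -0.29) without PBS library 3 or OVA NP library 2.

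With soluble OVA 6 of 53 pathway genes were lower in the spleen and 6 higher, beside 6.72% and 10.5% of all genes tested, including Tnfrsf1b (-0.44), Prkcb (-0.37), Map3k14 (-0.30), Ccr7 (-0.52) and Ltb (-0.33) on the lower side and Cd83 (1.26), Gadd45b (0.70), Otulin (0.48) and Nfkbil1 (0.29) on the higher side. Of the 9 genes given by the rule 5 lost their call when 1 library was left out. Ltb (-0.42 to -0.23) kept it only without PBS library 2 or soluble OVA library 1 and Prkcb (-0.45 to -0.24) only without soluble OVA library 2 or 3. Map3k14 (-0.35 to -0.23) lost it without PBS library 3, Nfkbil1 (0.23 to 0.33) without PBS library 1 or 2 or soluble OVA library 1, and Tnfrsf1b (-0.52 to -0.30) without PBS library 3 or soluble OVA library 1 or 3. Between OVA NPs and soluble OVA none of the 53 was called. In PP, Cd83 moved the other way with soluble OVA (-1.33 ± 0.194, adjusted p = 0.00393 from edgeR), a gene singled out here after its values were seen. Its difference between tissues for soluble OVA against PBS was -2.59 on the log2 scale (adjusted p = 5.36e-05 from edgeR).

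Between the tissues, 31 of the 56 pathway genes differed in PBS controls (20 higher and 11 lower in PP), 29 with soluble OVA (13 and 16) and 18 with OVA NPs (15 and 3). These were 55.4%, 51.8% and 32.1% of the list, beside 25.5% higher and 20.1% lower of all genes with PBS, 26.7% and 24.3% with soluble OVA and 22% and 15.1% with OVA NPs, and no result about the pathway is read from them. Targets made up 14 of the 20 that were higher with PBS. Nfkbiz was higher in PP in all 3 comparisons, with log2 fold changes of 1.09, 0.42 and 1.31 for PBS, soluble OVA and OVA NP. Traf1 was higher as well (0.60, 0.49 and 0.75), and Tnfrsf13b was lower (-0.69, -0.85 and -0.54). Malt1 was lower with PBS (-0.44; -0.64 to -0.36 with 1 library left out, where the call held only without PP library 2) and with soluble OVA (-0.98), and Bcl3 was lower with soluble OVA (-0.71) and with OVA NPs (-0.40).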

How the data were processed

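The authors trimmed reads with cutadapt 2.3, aligned them with STAR 2.7.8a to GRCm38 and quantified genes with RSEM 1.3.3 (versions from the submitters' processing notes). The values the authors deposited are RSEM expected counts per gene, not normalized, and all were whole numbers (0 exceptions, rounding changed nothing). Libraries were grouped by their labels, 3 per group; the labels call them biological replicates without naming the animals behind each, so p-values measure the spread between these libraries.

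Each pair of groups was fitted on its own 6 libraries in edgeR 4.0.16 (R 4.3.3) with filterByExpr (minimum count 10), TMM scaling and a robust quasi-likelihood F test with Benjamini-Hochberg adjustment; interactions used 12 libraries. CPM came from one TMM scaling of all 18 libraries, and exon lengths from GENCODE M21 (GRCm38), an older release than the authors' annotation. SE is the log2 fold change over the square root of F. The fits were also run on simulated counts for OVA NP against PBS in the spleen, and for soluble OVA against PBS in PP and between tissues. These counts were drawn without outlying libraries, so they cannot speak for genes such as Tnfaip3 in PP. DESeq2 1.42.0, other scaling, filters and fits, and leaving out each library were alternatives.

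The members and gene lists were chosen with earlier results of these data known. All 10 members were named in each comparison, and from each pathway list up to 2 called genes per direction with the largest change and a mean of at least 1 CPM, with further names marked where they occur. 3 genes of these lists are not reported here, and the lists were counted without them.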

Additional observations from a re-analysis of the deposited data

Results flagged for a closer look

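The effect of a treatment differed between spleen and PP for 10 combinations of gene and contrast, by the interaction term in edgeR. For soluble OVA against PBS the change in PP was lower than that in the spleen by -0.41 on the log2 scale for Nfkb2, -0.37 for Nfkbia, -0.45 for Nfkbie and -0.53 for Birc3 (adjusted p = 0.0344, 0.046, 0.0368 and 0.024 from edgeR), beside 5.07% of all genes called in that direction. Leaving out 1 library gave 0 to 8 calls among the 10 genes, and the replicate number within each tissue as a block gave 0. That block does not pair spleen with PP libraries. For OVA NPs against soluble OVA the change in PP was higher than that in the spleen by 0.41 for Nfkb1, 0.53 for Nfkb2, 0.48 for Relb, 0.66 for Nfkbia, 0.52 for Nfkbie and 0.64 for Birc3 (adjusted p = 0.0102, 0.00288, 0.00803, 0.00209, 0.00945 and 0.00271 from edgeR), beside 7.97% of all genes. Both contrasts use the same soluble OVA libraries. PP was digested with enzymes and the spleen was not, so tissue and dissociation cannot be told apart in these differences.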

How the results depend on the processing

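Of 2629 values from alternative settings for 191 single-gene results, 2347 kept their direction and side of the threshold, 207 lost and 42 gained a call, and 33 changed sign. None of the 33 passed the threshold, and no called NF-kB gene changed sign. With all 18 libraries in one fit, 2 NF-kB genes were called for OVA NP against PBS in the spleen, 3 for soluble OVA against PBS in the spleen and 4 for PP against spleen with OVA NPs. DESeq2 called 1 for OVA NP against PBS in PP (0.943% of all genes) and 3 for PP against spleen with OVA NPs (36.6%). It called 1 for the tissue difference of OVA NP against PBS (1290 of all genes) and 7 for that of soluble OVA against PBS (1817). A minimum of 10 counts in every library gave 1 and 7 for these tissue differences, and no filter gave 1 for the first. Without the fold cutoff, 3 were called for PP against spleen with OVA NPs. Where no share of all genes stands beside a count here, no result about the NF-kB genes is read from it. The cause was not tested.

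Same-numbered libraries were checked for pairing. Of 27 pairs of equal numbers, 6 had a residual correlation above 0.1 and 9 correlated best with their own number. No comparison had all pairs above 0.1, so the numbers were not treated as pairs. Only spleen and PP libraries of the same treatment could share a mouse. Their correlations ran from 0.0039 to 0.11 with PBS, -0.077 to 0.11 with soluble OVA and -0.089 to 0.021 with OVA NPs. Among them PBS 2 and 3, soluble OVA 1 and 2 and OVA NP 1 correlated best with their own number. The labels do not name the mice, so this check does not settle pairing between tissues. With the replicate number as a block, 1 NF-kB gene was called for PP against spleen with OVA NPs and 0 for the tissue difference of soluble OVA against PBS, and in PP Nfkbid and Tnfaip3 lost their calls for soluble OVA against PBS. The block moved the genes called overall from 4697 to 3119 for OVA NP against soluble OVA in PP, from 734 to 244 for the tissue difference of OVA NP against PBS and from 1131 to 548 for that of soluble OVA. For the tissue differences the block was the number within each tissue, which does not pair spleen with PP libraries.

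Leaving out 1 library at a time gave 1 to 6 NF-kB genes for OVA NP and 3 to 7 for soluble OVA against PBS in the spleen, and 6 to 10 for soluble OVA against PBS and 6 to 9 for OVA NP against soluble OVA in PP. For PP against spleen the ranges were 5 to 7 with PBS, 7 to 9 with soluble OVA and 0 to 4 with OVA NPs. For the tissue differences they were 0 to 1 (OVA NP against PBS), 0 to 8 (soluble OVA against PBS) and 5 to 9 (OVA NP against soluble OVA). In the same order, the genes called over the whole table were 1539 to 2889 and 1754 to 2472 in the spleen. In PP they were 3107 to 4073 and 3581 to 4503. Between tissues they were 6375 to 7829, 7094 to 8248 and 4814 to 6276. For the tissue differences they were 291 to 945, 655 to 1279 and 1924 to 2814.

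The values that changed sign lay near 0 or had wide intervals. Under other settings Rela for OVA NP against soluble OVA in the spleen was 0.0042 without immunoglobulin genes. Nfkb2 for OVA NP against PBS in PP was 0.0016 with DESeq2, 0.0011 with its size factors, 0.016 with no filter and 0.0036 with at least 10 counts in every library. Relb for PP against spleen with PBS was -0.0064 with no filter. Nfkbie for PP against spleen with OVA NPs was 0.0076, 0.0080, 0.0090 and 0.030 under the same 4 settings as Nfkb2. Leaving out 1 library gave ranges for OVA NP against soluble OVA in the spleen of -0.052 to 0.048 for Rela, -0.045 to 0.058 for Relb, -0.041 to 0.075 for Nfkbia, -0.012 to 0.093 for Nfkbie, -0.12 to 0.010 for Nfkbid and -0.11 to 0.011 for Birc3. For OVA NP against PBS in PP they were -0.0050 to 0.057 for Nfkb1, -0.040 to 0.048 for Nfkb2, -0.32 to 0.23 for Rel and -0.43 to 0.28 for Tnfaip3. Between tissues they were -0.040 to 0.094 for Relb with PBS, -0.19 to 0.0062 for Rel with soluble OVA and -0.047 to 0.057 for Nfkbie with OVA NPs.

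Over all genes, the count called for OVA NP against PBS in PP was 0, 149 with DESeq2, 146 with no filter and 24 with all libraries in one fit. For OVA NP against soluble OVA in the spleen it was 33, 105, 230 and 14. DESeq2 called 1290 genes for the tissue difference of OVA NP against PBS and 1817 for that of soluble OVA.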
